A study of Rattus norvegicus with 6 samples.

Results

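The genes described here code for the enzymes with which the liver breaks down amino acids and turns the ammonia they release into urea. They are 34 genes listed by name for their known function. Of these, 32 were matched through their RefSeq accession to at least 1 probe, among 15284 genes named on the array, and they account for 50 of 61657 probes. Gldc and Shmt1 were matched to no probe and are not analysed here. All 50 probes were well above background on 6 of 6 arrays, so the filter on dim spots removed none of them, and 0 of their spots were saturated or marked as outliers.

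Whole liver RNA of 6 male Sprague-Dawley rats (Crl:CD(SD)), bought at 5 weeks of age, was hybridised to Agilent 1-colour arrays, with 1 animal per array. Corn oil, the vehicle, was given to 3 of them, and phenolphthalein, a dye formerly taken as a laxative, to the other 3, at a daily dose of 1000 mg per kg. The length of treatment differs between labels and is 28 days in the design text and 9 weeks in the treatment protocol. All corn oil arrays lay on slide 1 with scan 1 and all phenolphthalein arrays on slide 2 with scan 2, so a difference between slides or scans and one between treatments cannot be told apart here. Signals are given as log2 of the spot's processed intensity relative to the array's 75th percentile, so that 0 is the 75th percentile, and the level of 1 probe is not set against that of another. The hepatocyte marker Alb, serum albumin, had a mean signal of 9.59 ± 0.05 (SD, n = 3) in corn oil and 9.60 ± 0.01 (SD, n = 3) after phenolphthalein, and all 10 hepatocyte markers looked at were measured.

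An amino acid is broken down by moving its amino group to another acid or by releasing it as ammonia, after which the carbon skeleton is burnt or made into glucose. The urea cycle, which runs partly in the mitochondria of hepatocytes around the portal vein, joins the ammonia with bicarbonate and aspartate and releases urea. In rat liver many of these enzymes are known to be induced by glucocorticoids, glucagon and dietary protein, and tyrosine aminotransferase and tryptophan dioxygenase are classic examples.

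The comparison asked whether transcripts of these enzymes differed between rats given phenolphthalein and rats given corn oil. The members with the largest differences were Gpt, cytosolic alanine aminotransferase, and Tdo2, which opens the ring of tryptophan, with means 1.79-fold and 1.69-fold higher with phenolphthalein. Across the 11434 genes tested with limma, 0.0612% had a Benjamini-Hochberg adjusted p under 0.05, and no member was among them. Over the 39411 probes tested this share was 0.0482%, with 0 of the 50 member probes. The smallest adjusted p of a member was 0.172, for Gpt. At an unadjusted p under 0.05 there were 2 members higher and 0 lower, against 7.16% and 8.11% of all tested genes. All 3 phenolphthalein arrays lay above all 3 corn oil arrays for 2 members and below them for 1, and the groups overlapped for the other 29. For all tested genes such a separation was seen in 12.2% in the higher and 11% in the lower direction, and for 23.2% in either direction, beside 3 of 32 members. The mean was higher with phenolphthalein for 24 of 32 members and lower for 8, while 51.8% of all tested genes had a higher and 48.2% a lower mean. The members' split was 20 to 12 with quantile normalization, 21 to 11 with normexp and 28 to 4 with a median shift. At an unadjusted p under 0.05 in either direction the members counted 8 with a median shift, beside 2263 of all 11434 tested genes. With normexp background correction 6 members stood beside 1963 of all genes, and in the main setting 2 beside 1746. The members counted 3, 5 and 4 without corn oil replicate 1, corn oil replicate 3 and phenolphthalein replicate 1. All genes then counted 1371, 1380 and 1482. Without corn oil replicate 2 there were 3 members, of which 2 were higher, beside 1486 of all genes.

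**Figure D1:**
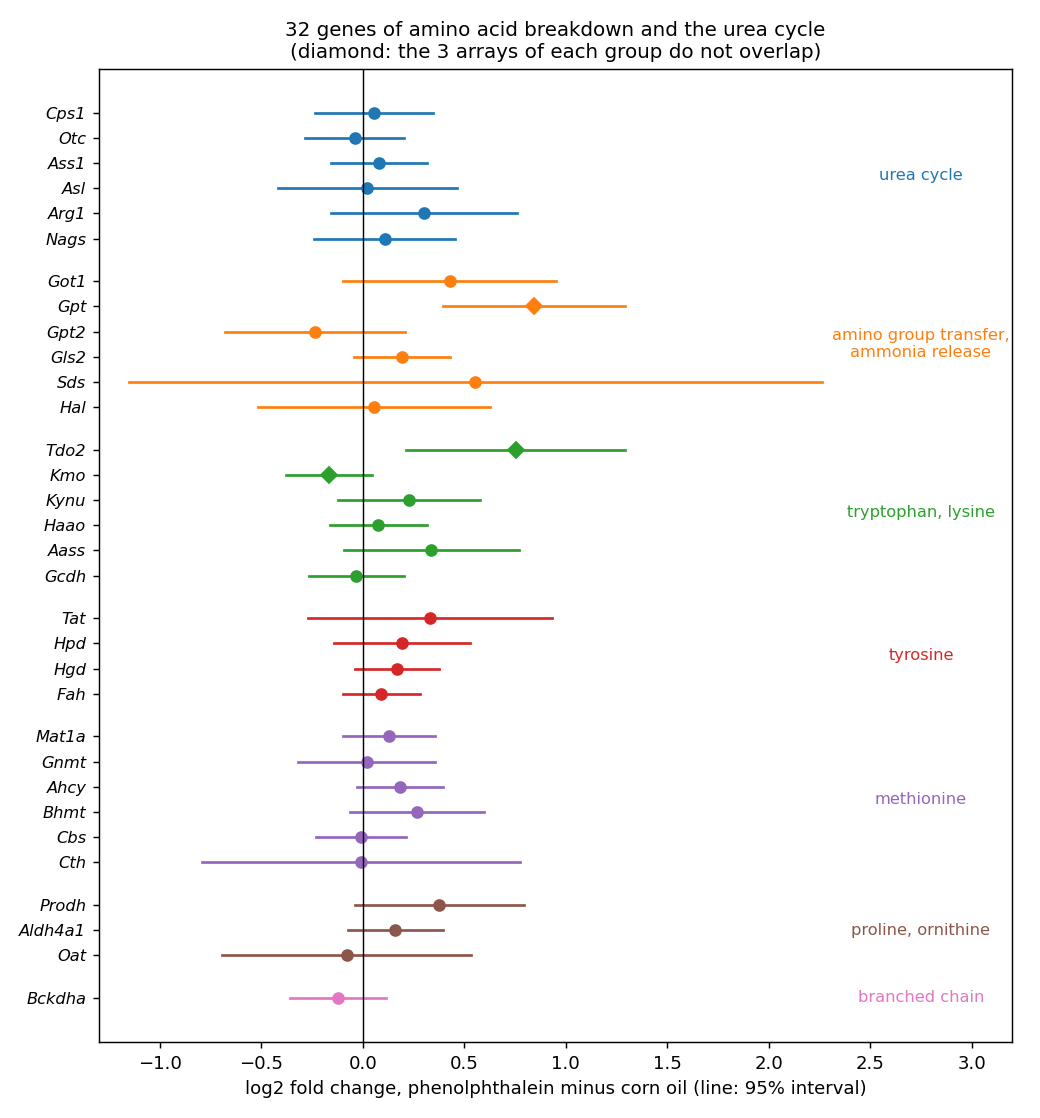
Log2 fold change of each of the 32 measured genes on the horizontal axis, phenolphthalein minus corn oil, with its 95% interval from limma (n = 3 per group), by branch. The intervals of Gpt and Tdo2 lie above 0, the widest interval is that of Sds, and diamonds mark the 3 genes whose groups do not overlap.

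The median log2 fold change of the members was 0.12, and that of all tested genes 0.01. The median was 0.07 without corn oil replicate 2, 0.05 with quantile normalization, 0.08 when all probes of a gene were averaged, and 0.20 with a median shift. Most members had bright spots, and 21 of 32 lay among the brightest 10% of tested genes. The median of all 1144 genes in that bin was 0.07, with a higher mean for 69.7% of them, while the median of the dimmest 10% was -0.10. The 21 members had a median of 0.13. With quantile normalization the brightest bin had a median of 0.01 and its 21 members one of 0.02.

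**Figure D2:**
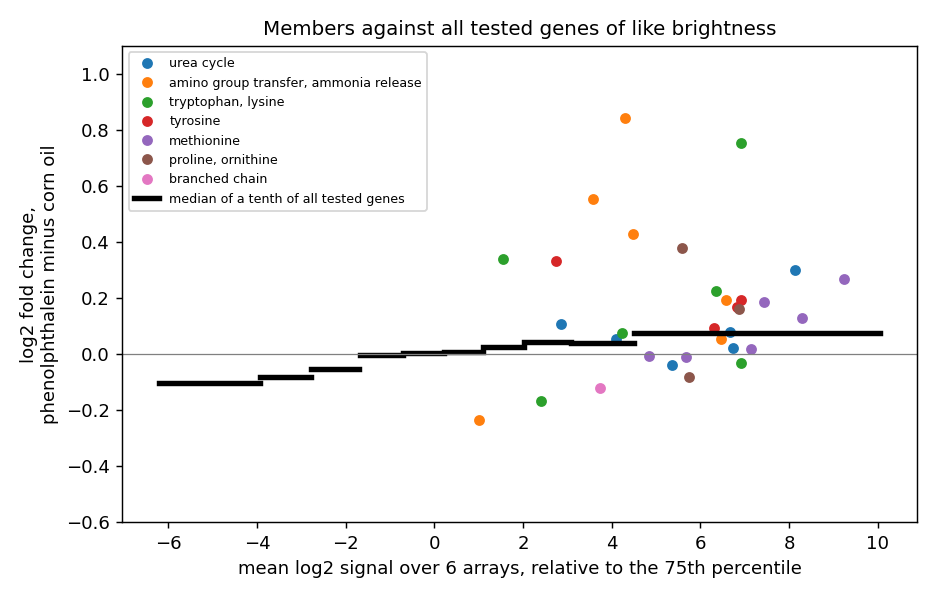
Log2 fold change, phenolphthalein minus corn oil, against the mean log2 signal over 6 arrays for the 32 members, coloured by branch, with black lines for the median of each of 10 bins of all tested genes. These medians run from -0.10 for dim to 0.07 for bright genes, and Gpt and Tdo2 stand at 0.84 and 0.75.

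The arrays did not fall into their groups over the members as a whole. Taken over the 32 members, the median difference of an array from each gene's own mean (on the log2 scale) was -0.06, -0.13 and 0.05 for the corn oil animals and -0.03, 0.14 and 0.11 for the phenolphthalein animals, each in the order of replicates 1 to 3. Phenolphthalein replicate 1 lay between corn oil replicates, and phenolphthalein replicates 2 and 3 lay above all corn oil arrays. Means of markers of other cells were also compared, and no marker of any cell type passed in limma over all genes. For 12 of 12 tested Kupffer cell and macrophage markers the mean was lower with phenolphthalein, with a summed linear signal (in multiples of the 75th percentile) of 196 to 279 in corn oil and 146 to 192 with phenolphthalein. For 8 of 8 tested lymphocyte markers it was lower too, with sums of 4.94 to 5.74 and 3.54 to 4.41. In whole liver, fewer cells of a type and less RNA per cell cannot be told apart. All 6 endothelial and all 9 stellate cell markers tested had a lower mean. Endothelial sums were 52.4 to 55.6 in corn oil and 49.1 to 52.7 with phenolphthalein. Stellate sums were 41.7 to 46.9 and 34.1 to 47.3, and the ranges of both lists overlapped between the groups. For 5 of 6 cholangiocyte markers the mean was higher, with sums of 1.66 to 1.82 and 2.16 to 2.19. Erythroid markers overlapped, at 563 to 808 and 546 to 674. The 10 hepatocyte markers summed to 5741 to 6152 in corn oil and 5989 to 6200 with phenolphthalein, so their ranges overlapped. Of the other cell types, the neutrophil markers Elane, Cxcr2 and Ngp and the muscle and fat markers Myh1 and Adipoq were well above background on 0 of 6 arrays. Among the 4 tested neutrophil markers the mean was higher for 2 and lower for 2. The part of other cells in the members' values was not tested.

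**Figure D3:**
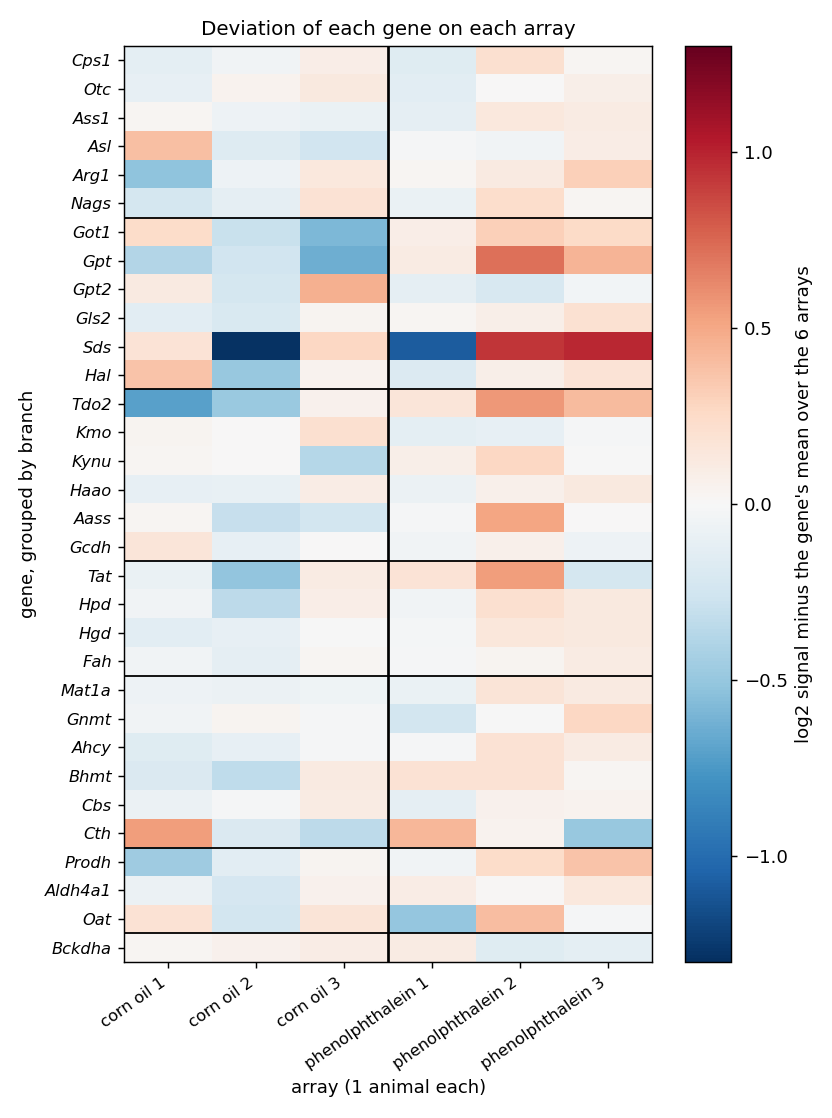
Deviation of each gene's log2 signal from its mean over the 6 arrays, with genes in rows by branch and arrays in columns, corn oil on the left of the vertical line. Sds is lowest on corn oil replicate 2 and phenolphthalein replicate 1, and the median over all 32 genes is highest on phenolphthalein replicates 2 and 3.

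None of the 6 urea cycle genes passed, and their groups all overlapped, with a median log2 fold change of 0.07 and a range over genes of -0.04 to 0.30. The median was 0.15 without phenolphthalein replicate 1, 0.03 without phenolphthalein replicate 2, -0.0047 with quantile normalization and 0.15 with a median shift. Cps1, carbamoyl phosphate synthetase, which joins ammonia and bicarbonate at the entry of the cycle, read 3.97, 4.05 and 4.18 in the corn oil animals (always in the order of replicates 1 to 3) and 3.94, 4.30 and 4.12 in the phenolphthalein animals. The highest and the lowest value of Cps1 were thus both on phenolphthalein arrays. Its log2 fold change was 0.05 ± 0.12 (SE), and the 95% interval ran from -0.24 to 0.35.

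Nags makes N-acetylglutamate, the activator that carbamoyl phosphate synthetase needs, and it averaged 2.81 ± 0.21 in corn oil and 2.92 ± 0.16 (SD, n = 3 each) after phenolphthalein. Otc, ornithine transcarbamylase, had a log2 fold change of -0.04, with a 95% interval of -0.28 to 0.20. For Ass1, argininosuccinate synthase, it was 0.08, with an interval of -0.16 to 0.32. These intervals leave out a 1.5-fold difference in either direction for Cps1, Otc and Ass1. Asl, argininosuccinate lyase, had a log2 fold change of 0.02, and its value of 7.13 on corn oil replicate 1 lay well above the 6.49 to 6.84 of the other 5 arrays. Without corn oil replicate 1 the log2 fold change of Asl was 0.22. The second Asl probe gave 0.01, with the same high array. Arg1, liver arginase, which splits off urea, had the largest value of the branch, 0.30 ± 0.19 (SE), and here corn oil replicate 1 was the lowest array, at 7.61 against 8.07 to 8.45 on the others. Without that array it was 0.12.

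Of the 6 genes of amino group transfer and ammonia release, 5 had a higher mean, none passed, and the median was 0.31 (0.10 without corn oil replicate 2). Gpt, which moves the amino group of alanine to alpha-ketoglutarate and whose protein is measured in serum as a sign of liver injury, read 3.92, 4.06 and 3.67 in the corn oil animals. It read 4.41, 5.02 and 4.75 in the phenolphthalein animals. All phenolphthalein arrays lay above all corn oil arrays, and the gap between the nearest arrays of the groups was smaller than the spread among the phenolphthalein arrays. The log2 fold change was 0.84 ± 0.18 (SE), with a 95% interval of 0.39 to 1.29 and a limma adjusted p of 0.172 (unadjusted 0.00381). Leaving out 1 array at a time gave 0.70 to 1.00. The second Gpt probe also separated the groups, with 0.99, 1.04 and 0.40 in corn oil and 1.22, 1.92 and 1.56 with phenolphthalein, and a log2 fold change of 0.76 ± 0.25 (SE).

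Gpt2, the mitochondrial form of the same enzyme, did not share that direction. It averaged 1.12 ± 0.35 in corn oil and 0.88 ± 0.09 (SD, n = 3 each) after phenolphthalein, and its probes gave -0.24 and -0.15. Its 95% interval of -0.68 to 0.21 does not meet that of Gpt, although the difference between the 2 genes was not tested. Got1, cytosolic aspartate aminotransferase, was at 4.71, 4.18 and 3.89 in corn oil and 4.56, 4.78 and 4.72 with phenolphthalein. Its corn oil arrays spread widely and corn oil replicate 1 lay within the phenolphthalein range. Its log2 fold change was 0.43 ± 0.21 (SE), and it was 0.65 without that array and 0.24 without corn oil replicate 3. Gls2, liver glutaminase, which frees ammonia from glutamine, was higher by 0.19 ± 0.10 (SE) in the mean, with overlapping groups. Hal, histidine ammonia-lyase, differed by 0.05 ± 0.23 (SE).

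**Figure D4:**
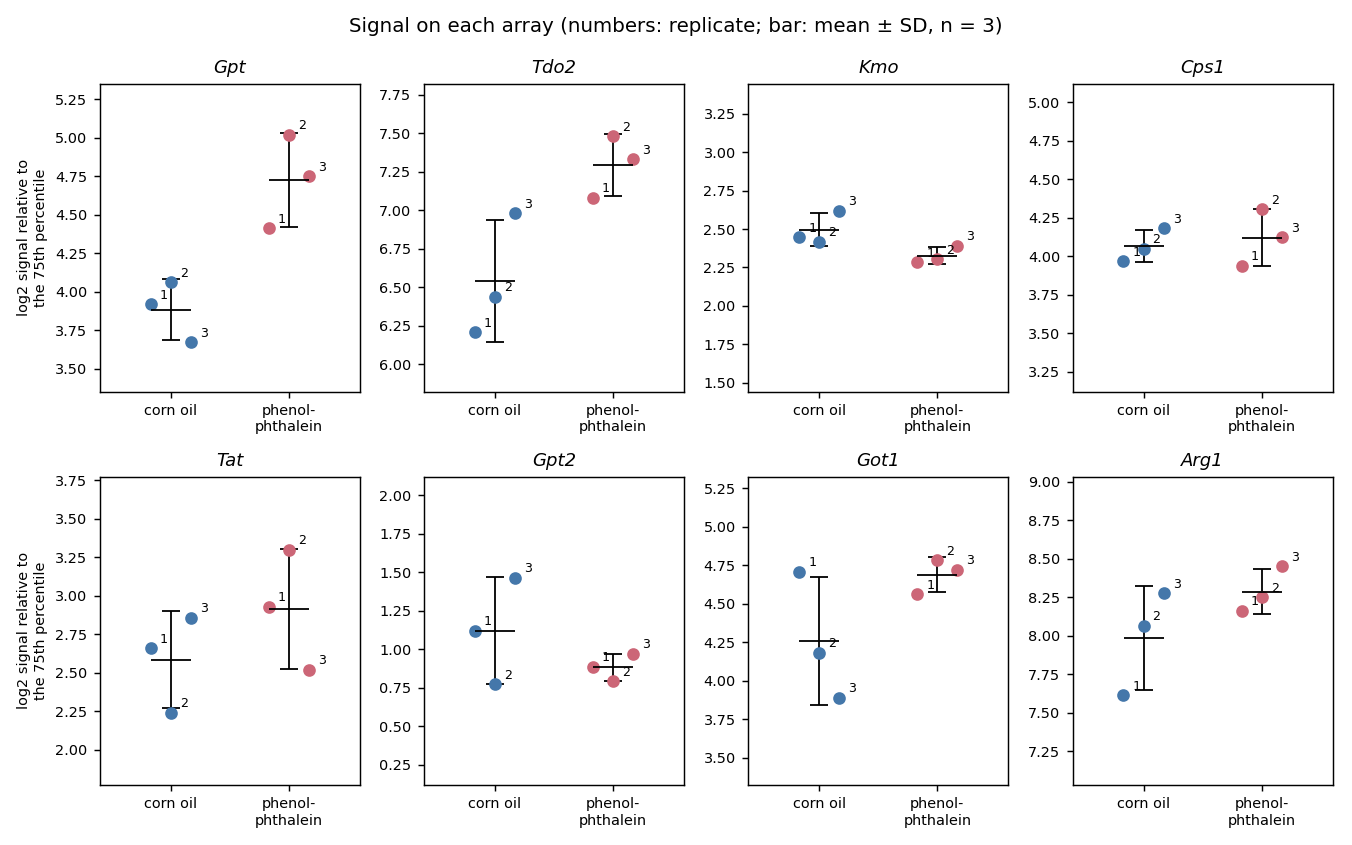
Log2 signal of 8 genes on each array, relative to the 75th percentile, with the replicate number beside each point and bars for mean ± SD (n = 3 per group). For Gpt and Tdo2 all phenolphthalein arrays lie above all corn oil arrays, for Kmo below them, and for the other 5 genes the groups overlap.

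Tryptophan is broken down along the kynurenine pathway, which Tdo2 opens in hepatocytes, and lysine breakdown joins its route before glutaryl-CoA. Tdo2 read 6.21, 6.44 and 6.98 in the corn oil animals and 7.08, 7.48 and 7.33 in the phenolphthalein animals. The groups did not overlap, but corn oil replicate 3 lay closer to the lowest phenolphthalein array than to either other corn oil array. The log2 fold change was 0.75 ± 0.22 (SE), with a 95% interval of 0.21 to 1.29 and a limma adjusted p of 0.239 (unadjusted 0.0142). Without 1 array it ran from 0.59 to 0.97. Tdo2 has 1 probe on the array.

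Kmo, kynurenine monooxygenase, was the 1 member whose groups separated in the lower direction. It read 2.45, 2.42 and 2.62 in corn oil and 2.29, 2.31 and 2.39 with phenolphthalein. The gap between the groups was narrow, and the log2 fold change was -0.17 ± 0.09 (SE, limma adjusted p = 0.413). Kynu, kynureninase, had a log2 fold change of 0.23 with its brighter probe and 0.11 with the other. Haao, hydroxyanthranilate dioxygenase, which acts after it, had 0.08, and the groups of both genes overlapped. Along the pathway in order, the log2 fold change was thus 0.75 for Tdo2, -0.17 for Kmo, 0.23 for Kynu and 0.08 for Haao. On the lysine side, Aass, the bifunctional enzyme that starts lysine breakdown, had 0.34 ± 0.18 (SE), with phenolphthalein replicate 2 the highest array, at 2.05 against 1.24 to 1.57 on the others. Without that array it was 0.17. Gcdh, glutaryl-CoA dehydrogenase, had -0.03.

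The promoters of Tdo2 and Tat are shown because both genes are textbook targets of glucocorticoids in rat liver, while only Tdo2 separated the groups. Each is 300 bases from RefSeq on GRCr8, from 250 bases before to 50 after the annotated start, on the gene's own strand, with capitals for CCAAT on either strand (ATTGG on the other) and for TATAAA. Tdo2 lies on the minus strand, chr2:169585537-169585836, and Tat on the plus strand, chr19:54856354-54856653.
Tdo2: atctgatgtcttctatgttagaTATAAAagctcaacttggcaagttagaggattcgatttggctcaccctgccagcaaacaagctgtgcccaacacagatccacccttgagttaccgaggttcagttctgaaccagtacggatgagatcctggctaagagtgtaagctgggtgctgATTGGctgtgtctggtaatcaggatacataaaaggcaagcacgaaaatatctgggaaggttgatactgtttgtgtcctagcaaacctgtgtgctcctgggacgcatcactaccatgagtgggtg
Tat: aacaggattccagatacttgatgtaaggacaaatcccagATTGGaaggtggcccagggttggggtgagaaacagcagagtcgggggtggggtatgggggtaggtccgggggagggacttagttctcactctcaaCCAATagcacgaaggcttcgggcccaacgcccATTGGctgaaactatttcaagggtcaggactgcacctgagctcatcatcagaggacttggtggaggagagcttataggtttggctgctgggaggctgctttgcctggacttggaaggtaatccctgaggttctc

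The CCAAT box occurred 1 time in the Tdo2 window and 3 times in that of Tat. It was found in 16 of the 28 members with a promoter in the table and in 37.5% of all 33469 promoters of the same length. The hexamer TGTTCT of the glucocorticoid response element, searched on both strands, matched neither window, and 2 of the 28 members and 20.7% of all promoters held it. TATAAA on the gene's strand was in 2 of the 28 members and in 8.8% of all promoters. In the Tdo2 window it began at base -228 from the start, far from the start itself, and the Tat window did not hold it. These matches describe the letters of the window, and elements further away were not searched.

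All 4 genes of tyrosine breakdown had a higher mean with phenolphthalein, with a median log2 fold change of 0.18 and a range of 0.09 to 0.33, and none passed or separated the groups. The median was 0.12 without corn oil replicate 2 and 0.08 with quantile normalization. Tat, tyrosine aminotransferase, the rate-limiting step, read 2.66, 2.24 and 2.86 in corn oil and 2.93, 3.30 and 2.52 with phenolphthalein. The groups overlapped, since phenolphthalein replicate 3 lay below 2 of the corn oil arrays, and the log2 fold change was 0.33 ± 0.25 (SE). It was 0.16 without corn oil replicate 2, 0.14 without phenolphthalein replicate 2 and 0.53 without phenolphthalein replicate 3. Hpd, hydroxyphenylpyruvate dioxygenase, had 0.19 ± 0.14 (SE), and 0.07 without corn oil replicate 2. Hgd, homogentisate dioxygenase, had 0.17 ± 0.08 (SE) with its brighter probe and -0.10 with the other, so its direction depends on the probe. Fah, fumarylacetoacetase, the last step, had 0.09, and its 6 arrays all lay between 6.20 and 6.42.

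In the methionine branch the median log2 fold change was 0.07, and it was -0.02 with quantile normalization, 0.15 with a median shift and 0.18 without phenolphthalein replicate 1. Mat1a, the liver enzyme that makes S-adenosylmethionine, averaged 8.22 ± 0.01 in corn oil and 8.35 ± 0.14 (SD, n = 3 each) after phenolphthalein. Its 3 probes gave -0.04, 0.01 and 0.13. Gnmt, glycine N-methyltransferase, which uses up S-adenosylmethionine, had 0.02, with a 95% interval of -0.32 to 0.36. Ahcy, which clears S-adenosylhomocysteine, had 0.18 ± 0.09 (SE) and touching groups, with 7.42 as the highest corn oil and the lowest phenolphthalein value.

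Bhmt, which remakes methionine from homocysteine with betaine, had 0.27 ± 0.13 (SE) with its brighter probe. Its second probe gave 0.56 ± 0.22 (SE) in the test over all probes, with overlapping groups. Cbs, cystathionine beta-synthase, had -0.01, with a 95% interval of -0.23 to 0.21. Cth, which makes cysteine in the next step, varied more between animals than between groups. It read 5.37, 4.65 and 4.49 in corn oil and 5.26, 4.88 and 4.34 with phenolphthalein, so both groups covered nearly the same range, and its log2 fold change was -0.01 ± 0.32 (SE).

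Of the proline and ornithine genes, Prodh, proline dehydrogenase, which starts proline breakdown, averaged 5.40 ± 0.25 in corn oil and 5.78 ± 0.21 (SD, n = 3 each) after phenolphthalein. Its log2 fold change was 0.38 ± 0.17 (SE, limma adjusted p = 0.357). All 4 of its probes were higher in the mean, by 0.11 to 0.39 log2 units, and the groups overlapped because corn oil replicate 3, at 5.63, lay above phenolphthalein replicate 1, at 5.55. Aldh4a1, which completes the conversion of proline to glutamate, had 0.16 with its brightest probe and 0.05 and -0.05 with the others. Oat, ornithine aminotransferase, which is found around the central vein, had -0.08 ± 0.25 (SE), and its second probe -0.35. Bckdha, a subunit of the enzyme complex that commits branched-chain amino acids to breakdown, had -0.12 ± 0.10 (SE).

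Differences between animals of the same group were widest for Sds, serine dehydratase, which turns serine into pyruvate and ammonia. Sds read 3.76, 2.30 and 3.86 in the corn oil animals and 2.50, 4.51 and 4.57 in the phenolphthalein animals. Corn oil replicate 2 and phenolphthalein replicate 1 lay over 1 log2 unit below all other arrays, so each group held 1 low animal. The pooled within-group SD was 1.04, at the 98.5th percentile of all tested genes, and the log2 fold change of 0.55 had an SE of 0.70. Without phenolphthalein replicate 1 it was 1.23 and without corn oil replicate 2 it was 0.05, and it did not pass in either fit. The second Sds probe showed the same arrays low, with 0.88 on corn oil replicate 2 and 0.91 on phenolphthalein replicate 1 against 1.83 to 2.46 on the other 4. Only Sds and Cth of the 32 members had a within-group SD, pooled over both groups, of over 0.4, against 11.5% of all tested genes.

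Genes around serine and histidine were looked at array by array after the Sds values had been seen, so they are a description. Amdhd1, an enzyme of histidine breakdown, had its lowest values on the same arrays, 0.93 on corn oil replicate 2 and 1.21 on phenolphthalein replicate 1, against 1.93 to 2.40 on the others. Hal, the histidine enzyme among the members, was also lowest on these arrays within its groups, at 5.97 and 6.29. Ftcd, another enzyme of histidine breakdown, did not follow. It read 6.62 on corn oil replicate 2, above the 6.57 of corn oil replicate 3, and was highest on phenolphthalein replicate 1, at 6.86. Enzymes of serine synthesis ran the other way on corn oil replicate 2. Phgdh, which starts that pathway, read 4.96 there and 3.99 on phenolphthalein replicate 1, against 3.93 on corn oil replicate 1 and 2.33 to 2.89 on the other 3. Psat1, the next enzyme, read 2.25 on corn oil replicate 2 and 0.75 on phenolphthalein replicate 1, and -0.16 to 0.60 on the other 4. Asns, asparagine synthetase, read 2.49 on corn oil replicate 2 and 0.18 to 1.36 elsewhere. Apart from Ftcd, none of these genes separated the treatment groups.

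**Figure D5:**
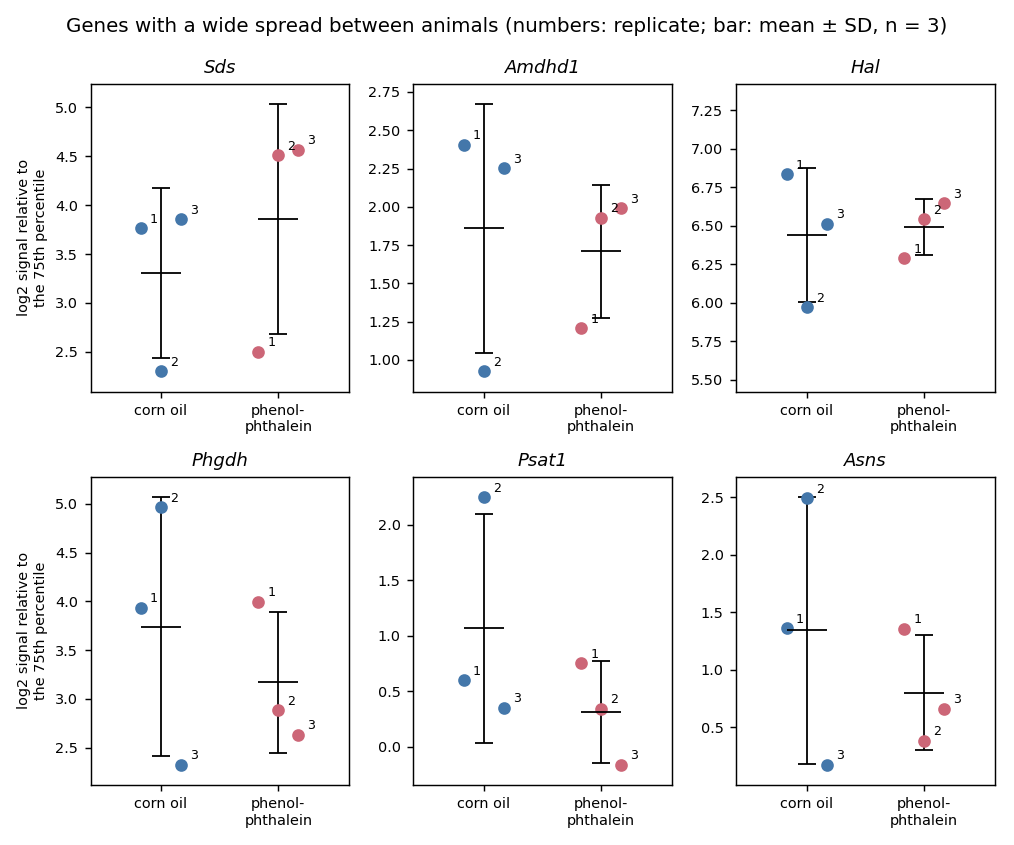
Log2 signal of 3 genes of serine and histidine breakdown (upper row) and 3 of serine and asparagine synthesis (lower row) on each array, relative to the 75th percentile, with the replicate number beside each point and bars for mean ± SD (n = 3 per group). Corn oil replicate 2 and phenolphthalein replicate 1 are the low arrays of their groups in the upper row, and corn oil replicate 2 is the highest array in the lower row.

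Another 84 genes of the same pathways served as their wider setting, and 73 of them were tested. None passed over all genes in limma, and the median log2 fold change was 0.07. Of the 73, 6 were higher and 2 lower at an unadjusted p under 0.05, against 7.16% and 8.11% of all tested genes. Separation of the groups was seen in the higher direction for 17 and in the lower direction for 1, which are shares of 23.3% and 1.37% against the 12.2% and 11% of all tested genes. These shares were not matched for brightness. Many of the 73 had bright spots, and 69.7% of the brightest 10% of tested genes had a higher mean. Of 9 urea and nitrogen genes outside the list, the smallest p-values were those of Sirt5, a mitochondrial deacylase known to act on carbamoyl phosphate synthetase, and Slc25a15, the mitochondrial ornithine carrier. Sirt5 was at 4.09, 4.17 and 4.08 in corn oil and 4.46, 4.33 and 4.38 with phenolphthalein, a log2 fold change of 0.28 ± 0.07 (SE). Its second probe gave 0.12 with overlapping groups. Slc25a15 was at 3.68, 3.67 and 3.58 in corn oil and 3.97, 4.08 and 3.85 with phenolphthalein, a log2 fold change of 0.33 ± 0.09 (SE), while its dim second probe gave -0.20 with overlapping groups. Glul, glutamine synthetase, which takes up the ammonia that the urea cycle leaves, was picked after its values were seen. It read 3.21, 3.77 and 3.87 in corn oil and 3.04, 3.03 and 3.31 with phenolphthalein, with overlapping groups and a log2 fold change of -0.49.

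In the wider tryptophan and lysine group of 9 genes, Acmsd, which leads the kynurenine pathway away from NAD synthesis, had the largest difference. It read -2.49, -2.66 and -2.39 in corn oil and -0.97, -1.63 and -1.78 with phenolphthalein, and its groups did not overlap. The log2 fold change was 1.05 ± 0.22 (SE, limma adjusted p = 0.172). Acmsd has 1 probe on the array, with a mean signal at the 27th percentile of tested genes. Asrgl1 of the same group had 1.02 ± 0.60 (SE) with overlapping groups. Kyat3, a kynurenine aminotransferase, had 0.16. In the separate list of 8 tested phenylalanine, tyrosine and histidine genes, Ftcd, a late enzyme of histidine breakdown, had 0.19 and separated groups.

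In the methionine, glycine and serine list of 23 genes, Mtr, methionine synthase, had -0.33 and the serine dehydratase-like gene Sdsl 0.18, both with separated groups. In the proline list of 7 genes, Grhpr, glyoxylate reductase, had 0.13 and Aldh18a1, which makes proline and ornithine precursors, -0.25. In the branched-chain list of 17 genes, Pcca, a subunit of propionyl-CoA carboxylase, had 0.25 and separated groups, and Ppm1k, the phosphatase that activates the branched-chain complex, had 0.46 with overlapping groups. None of these genes passed.

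Among 22 tested regulators and response genes of amino acid metabolism, none passed, and the median was 0.08. Fkbp5, a cochaperone gene induced through the glucocorticoid receptor, was at 1.21, 2.25 and 2.47 in corn oil and 3.22, 3.87 and 3.37 with phenolphthalein, with no overlap. Its log2 fold change was 1.51 ± 0.36 (SE, limma adjusted p = 0.2), and its other probes gave 1.41 and 1.37. Corn oil replicate 1 was the lowest array for both Fkbp5 and Tdo2, and phenolphthalein replicate 2 the highest for both. Tat, a glucocorticoid target too, was also highest on phenolphthalein replicate 2 but lowest on corn oil replicate 2. Some other genes of this list shared that order and others did not. Foxo1, Trib3, Klf15, Per1 and Nr3c1 are named here beyond the list's 2 smallest p-values. Foxo1, with a log2 fold change of 0.10, and Trib3, with 0.65, had the same lowest and highest arrays, with overlapping groups. Foxo1 was nearly as low on phenolphthalein replicate 3, at 0.48, as on corn oil replicate 1, at 0.47. Klf15, with a log2 fold change of 0.07, was lowest on corn oil replicate 1 but highest on phenolphthalein replicate 1. Per1, with -0.22, was highest on corn oil replicate 3 and lowest on phenolphthalein replicate 3. Nr3c1, the glucocorticoid receptor gene, had -0.22 with overlapping groups. A shared cause was not tested. Ddit3, a transcription factor of the stress response, was at 3.36, 2.72 and 3.11 in corn oil and 2.62, 2.36 and 2.68 with phenolphthalein, with no overlap and a log2 fold change of -0.51 ± 0.18 (SE).

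Several members are zoned along the liver lobule, so lists of zone markers were set beside them. Of 10 tested markers of periportal hepatocytes, 5 of them members (Sds, Hal, Gls2, Ass1 and Cps1), 8 had a higher mean with phenolphthalein, with a median log2 fold change of 0.09. Of 10 tested markers of pericentral hepatocytes, which include Oat, 9 had a lower mean and the median was -0.27. Their summed linear signal was 430 to 529 in corn oil and 418 to 484 with phenolphthalein, so the groups overlapped. Most of this sum is Cyp2e1, with a mean log2 signal of 8.55 in corn oil and 8.33 with phenolphthalein. The median deviation of the list on each array overlapped too. It was -0.11, 0.16 and 0.25 in corn oil and -0.11, -0.28 and -0.0075 with phenolphthalein. In the periportal list 1 gene separated in the higher direction, and in the pericentral list 1 separated in each direction. Over all tested genes 12.2% separated in the higher and 11% in the lower direction. None of the zone markers passed in limma over all genes. An unadjusted p under 0.05 was seen for 0 periportal and 2 pericentral genes, 1 of these higher and 1 lower. Of all tested genes, 7.16% were higher and 8.11% lower at that threshold.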

How the data were processed

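Per the labels' protocols, total RNA was labelled with Cy3 and hybridised to 1-colour arrays. The deposited intensity is Agilent Feature Extraction's processed signal, for which the submitters' processing notes name version 10.7 and the headers 10.7.1.1, after background subtraction and spatial detrending and with no scaling between arrays. In the authors' deposited table the same signal was divided by 1 factor per array (within 0.00991% of constant), close to its 75th percentile, so it is linear, uncentred and runs the same way. Its column medians were 0.0984, 0.101 and 0.102 for corn oil and 0.0954, 0.0941 and 0.0959 for phenolphthalein replicates 1 to 3.

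Values here are the log2 processed signal less the array's own 75th percentile over 61657 probes other than controls. A probe was kept when at least 3 of 6 arrays had it well above background. Accessions were named through RefSeq (GRCr8, for names alone); 27460 probes matched 1 gene and 34197 none. The brightest probe stood for a gene. Each array had 62.1% to 65.1% of probes well above background and 4 to 14 outlier-marked spots, which were set missing, and the number of arrays limits the precision. limma 3.58.1 under R 4.3.3, with data.table at version 1.17.8, tested each gene (lmFit, eBayes, Benjamini-Hochberg over 11434 genes), and probes likewise over 39411.

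Members and lists were chosen with earlier results of these data known. All members were described, with the 2 smallest p-values of each wider list, except for 1 result that is not reported here. The replicate numbers did not pair the samples: deviations of same-numbered arrays correlated at -0.0245, 0.0165 and -0.0035 over genes. Alternatives were normexp (offset 50, on the median spot signal), quantile normalization, a median shift, no filter or a filter on 6 arrays, probes averaged per gene, limma's trend and robust options, outlier spots kept, the deposited values, each array left out, the replicate block, and unnamed accessions tested too. Masking of array columns of dim spots was added after seeing the data.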

Additional observations from a re-analysis of the deposited data

How the results depend on the processing

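No member gene and no member probe passed under any alternative that tested it. The count over all genes was 7, and it was 0 with the replicate block, 14 with unnamed accessions tested too, and 0 to 6 without 1 array. The replicate numbers do not pair the samples, and the replicate block left 0 members past the threshold. At an unadjusted p under 0.05 the count of members was 8 with a median shift and 6 with normexp, in place of 2. Over all 11434 tested genes that count was 2263 and 1963, in place of 1746. The members' median ran from 0.07 to 0.17 without 1 array. Gpt ran from 0.70 to 1.00 and Tdo2 from 0.59 to 0.97 over all alternatives, and 22 of 32 members kept their sign in all 17. The sign turned with normexp for Cps1 (-0.0116), Ass1 (-0.0366) and Gnmt (-0.0476). It turned with quantile normalization for Ass1 (-0.0227), Asl (-0.0724), Hal (-0.0364) and Gnmt (-0.0664), and with a median shift for Otc (0.0387), Gcdh (0.0476), Cbs (0.0692) and Cth (0.0707). Leaving out 1 array gave -0.0364 to 0.15 for Cps1, -0.10 to 0.0196 for Otc, -0.10 to 0.22 for Asl, -0.18 to 0.25 for Hal, -0.0931 to 0.0378 for Gcdh, -0.11 to 0.14 for Gnmt, -0.0486 to 0.0459 for Cbs, -0.23 to 0.26 for Cth and -0.30 to 0.15 for Oat. In all, leaving out 1 array turned the sign or moved the log2 fold change by over 1.5 times for 27 of 32 members, and did neither for Gpt, Gls2, Tdo2, Hgd and Ahcy. The cause was not tested. No member spot lay in a masked array column. With 3 arrays per group and slide equal to treatment, small differences cannot be settled here.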
